A study of Saccharomyces cerevisiae with 8 samples.

Results

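The genes described here are 37 genes of meiotic recombination and chromosome pairing in the budding yeast Saccharomyces cerevisiae, chosen by name from a table of 7127 genes. The names of 36 were found as the table gives them, and ZIP3 was found under its other name CST9. They were measured by RNA sequencing in 8 libraries, 2 for each of 4 groups. The strain CRN (MATa ade2 his3 ura3 ppn1Δ::CgTRP1) lacks the polyphosphatase gene PPN1, and CRN/PPN2 is CRN with a centromeric plasmid, pMB1_PPN2 Sc, on which the TDH3 promoter drives the polyphosphatase gene PPN2. Both strains therefore carry the PPN1 deletion, and the control strain carries no PPN2 plasmid. Cultures were grown at 29 °C in the rich medium YPD for 16 h, or in YPD with 20 mM KOH (+KOH) for 40 h (CRN) or 25 h (CRN/PPN2). In this haploid mating type and in rich medium the cells grow by mitosis, and the labels name no sporulation step.

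In meiosis the Spo11 protein and its partners cut the chromosomes, the breaks are repaired from the homologous chromosome by the recombinase Dmc1, and some repairs mature into crossovers. A protein axis of Rec8 cohesin, Hop1 and Red1 organises each chromosome, and the zipper-like synaptonemal complex, built on Zip1, joins the homologs along their length. In growing cells most of these genes are held off by Ume6, a protein that binds the upstream repression site URS1, until the inducer Ime1 opens them, and the later Ndt80 protein acts through the middle sporulation element.

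Total counts were 3844316 to 5004823 per library in 6 libraries, but only 1559324 and 796548 in CRN/PPN2 +KOH, so that 1 count there stood for 0.641 and 1.26 counts per 1000000 (CPM) against 0.200 to 0.260 CPM elsewhere. The cells of CRN/PPN2 +KOH were also lysed straight in the extraction reagent rather than pressed while frozen. Against CRN/PPN2 YPD that group differs in medium, hours and lysis together, and against CRN +KOH in strain, hours and lysis together, which cannot be told apart within either comparison. CRN +KOH differs from CRN YPD in medium and hours together (40 h against 16 h), which cannot be told apart either. For depth, all libraries were also thinned to the smallest total. PPN1 had 0 or 1 count in every library, and PPN2 had 828 to 946 counts in CRN and 5174 to 33545 in CRN/PPN2, as the labels say. Scaled for depth, both genes together were at 206 to 220 CPM in CRN and 5982 to 6843 CPM in CRN/PPN2. All 6 markers of MATa cells were detected in every library, with a summed level of 1222 to 1582 CPM in 6 libraries and 964 and 704 CPM in CRN/PPN2 +KOH. The 4 markers of MATalpha cells summed to 21.5 to 29.1 CPM in 6 libraries and to 68.1 and 81.5 CPM in CRN/PPN2 +KOH. With KOH in CRN/PPN2, 4 of 6 MATa markers were called lower, 3 of 3 tested MATalpha markers higher, and 2 of 6 markers of haploid cells higher and 2 lower, where 25.9% of all genes were called higher and 25.7% lower. The part of mating type or lysis in the results below was not tested.

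The sequences around the start codons hold a short run of letters that many of the members, but not all, share. The 6 letters GGCGGC, the core of URS1, stood on either strand in the window from 250 bases before to 50 bases after the start codon of 21 of 37 members (56.8%), against 309 of 6007 windows of all nuclear protein-coding genes (5.14%). The stretches below, taken from the RefSeq R64 genome and written along the gene's strand with the core in capitals (GCCGCC where it lies on the opposite strand), are those of 5 of the 12 members with the core that were called higher with KOH in CRN/PPN2, chosen after their values were seen, followed by SPO16, called lower, and NDJ1, not called.
REC8: acttgacttcGGCGGCaaaccaatat
HOP1: ttttaacctgGGCGGCtaaattgtac
SPO22: tacaaacttcGGCGGCtaattgcaaa
HED1: tattaagataGCCGCCcaggttaaat
SAE3: tctgcctaatGGCGGCtattctattt
SPO16: gtgaaaagtgGGCGGCtaaaaccgag
NDJ1: gtagaagttgGGCGGCtattttgaca
They lie at chrXVI:571547-571572 (minus strand), chrIX:226421-226446 (plus), chrIX:226063-226088 (minus), chrIV:477719-477744 (plus), chrVIII:262647-262672 (minus), chrVIII:402755-402780 (minus) and chrXV:117527-117552 (minus). The core starts 171 bases before the start codon of HOP1 and 124 before that of SPO22, and the pair are neighbours on chromosome IX that are read away from each other. After GGCGGC the next letters are TA in HOP1, SPO22, SAE3, SPO16 and NDJ1. The 7 letters CACAAAA, the core of the middle sporulation element, were found in 3 of 37 members (8.11%), near the 7.74% of all windows. Those members were MSH5, MLH3 and MAM1, a gene of the monopolin complex, whose stretch at chrV:372160-372186 (plus strand) holds the core on the opposite strand.
MAM1: atactttctaTTTTGTGtcactaattt
A match of letters is a description of the window and was not tested as a binding site.

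The number of members above background depended on how background was set. A member was called detected when both libraries of a group held at least 4 counts, since a true level that gives 0 counts can be as high as 3 counts. By that rule 29 of 37 members were detected in CRN YPD, 28 in CRN +KOH, 28 in CRN/PPN2 YPD and 29 in CRN/PPN2 +KOH, whatever the difference in depth. Over all 7127 genes the shares by that rule were 80.9%, 80.8%, 81.3% and 79.2%. After every library was thinned in a single random draw to the 796548 counts of the smallest, the numbers of members were 17, 17, 16 and 29. The share of all genes after thinning was not counted, so whether that change is particular to the members was not tested. At 10 CPM or more in both libraries, the level used to call a gene expressed, the members numbered 12, 12, 13 and 23. Over all 7127 genes the share at that level moved only from 71.3%, 71.5% and 72.0% to 74.6%.

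The same 12 members reached 10 CPM in all 4 groups. These were REC107, SKI8, RED1, ZIP1, ZIP3, GMC1, RDH54, MSH5, HFM1, MLH3, CSM1 and NDJ1, and HOP1 joined them in CRN/PPN2 YPD. CRN/PPN2 +KOH added SPO11, MEI4, REC8, PCH2, SPO22, DMC1, MND1, HED1, MSH4 and MAM1. At the other end, GMC2 had 2 counts in all 8 libraries, MEI5 4, MER1 4 and CSM4 7, too few for any test. No count at all was found for GMC2, MEI5 and CSM4 in CRN YPD, GMC2 and MER1 in CRN +KOH, SAE3, MEI5 and MER1 in CRN/PPN2 YPD, and GMC2 in CRN/PPN2 +KOH. With 3844316 to 5004823 counts a library, a count of 0 allows a level of up to 0.599 to 0.780 CPM, and in CRN/PPN2 +KOH up to 1.92 and 3.77 CPM. These limits cover counting error only.

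A stricter background came from genes that a MATa strain without PPN1 should not use, namely PPN1 itself and the 4 MATalpha genes MF(ALPHA)1, MF(ALPHA)2, STE3 and SAG1. Set against the highest of them per library, in CPM per kilobase of coding sequence (RPKM), 9 members lay above background in CRN YPD, 8 in CRN +KOH, 10 in CRN/PPN2 YPD and 5 in CRN/PPN2 +KOH. The highest reference gene was SAG1, at 8.15 to 12.3 RPKM, in 6 libraries. In CRN/PPN2 +KOH it was MF(ALPHA)1, at 31.7 and 38.0 RPKM, and this α-factor gene itself rose there by 4.15 ± 0.51 (SE) on the log2 scale against CRN/PPN2 YPD (adjusted p = 1.20e-06). The 5 members above that raised line were REC107, SAE3, HED1, RDH54 and CSM1.

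**Figure D1:**
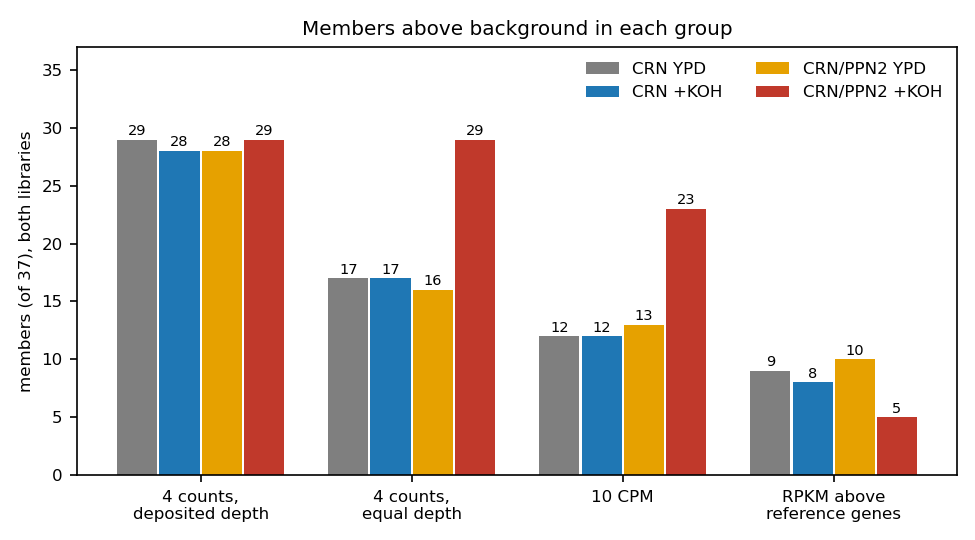
Number of the 37 members above background in both libraries of each group (bars from 0) under 4 rules: 4 counts at the deposited depth, 4 counts after thinning all libraries to 796548 counts, 10 CPM, and RPKM above the highest reference gene. At equal depth 29 members were detected in CRN/PPN2 +KOH and 16 or 17 in the other groups, while fewer members (5) passed the reference line there, which was itself higher. The share of all genes at equal depth was not counted.

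Per length of coding sequence, the best expressed member in CRN YPD was RDH54, a DNA translocase that also serves mitotic repair, at 74 ± 3.79 RPKM (mean ± SD, n = 2 here and below). SKI8, whose protein also works in RNA decay, followed at 72.6 ± 12.8 RPKM, a difference within the spread of the libraries. CSM1 at 33.7 ± 10.6 and REC107 at 25.8 ± 2.48 RPKM came next and overlapped with each other, and the remaining 33 members were at 18.0 RPKM or less. In CRN/PPN2 +KOH the order was RDH54 at 129 ± 4.18, HED1 at 66.5 ± 11.9, CSM1 at 43.9 ± 13.8, REC107 at 39.6 ± 5.93, SAE3 at 36.4 ± 3 and SKI8 at 36 ± 0.86 RPKM, and after RDH54 each place overlapped with the next within the SDs. In CRN YPD, HED1 and SAE3 had been at 3.18 ± 1.87 and 0.799 ± 1.13 RPKM. The summed level of all 37 members was 608.8 to 693.7 CPM in 6 libraries and 1138 and 1242 CPM in CRN/PPN2 +KOH, higher in both of those libraries than in any other.

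**Figure D2:**
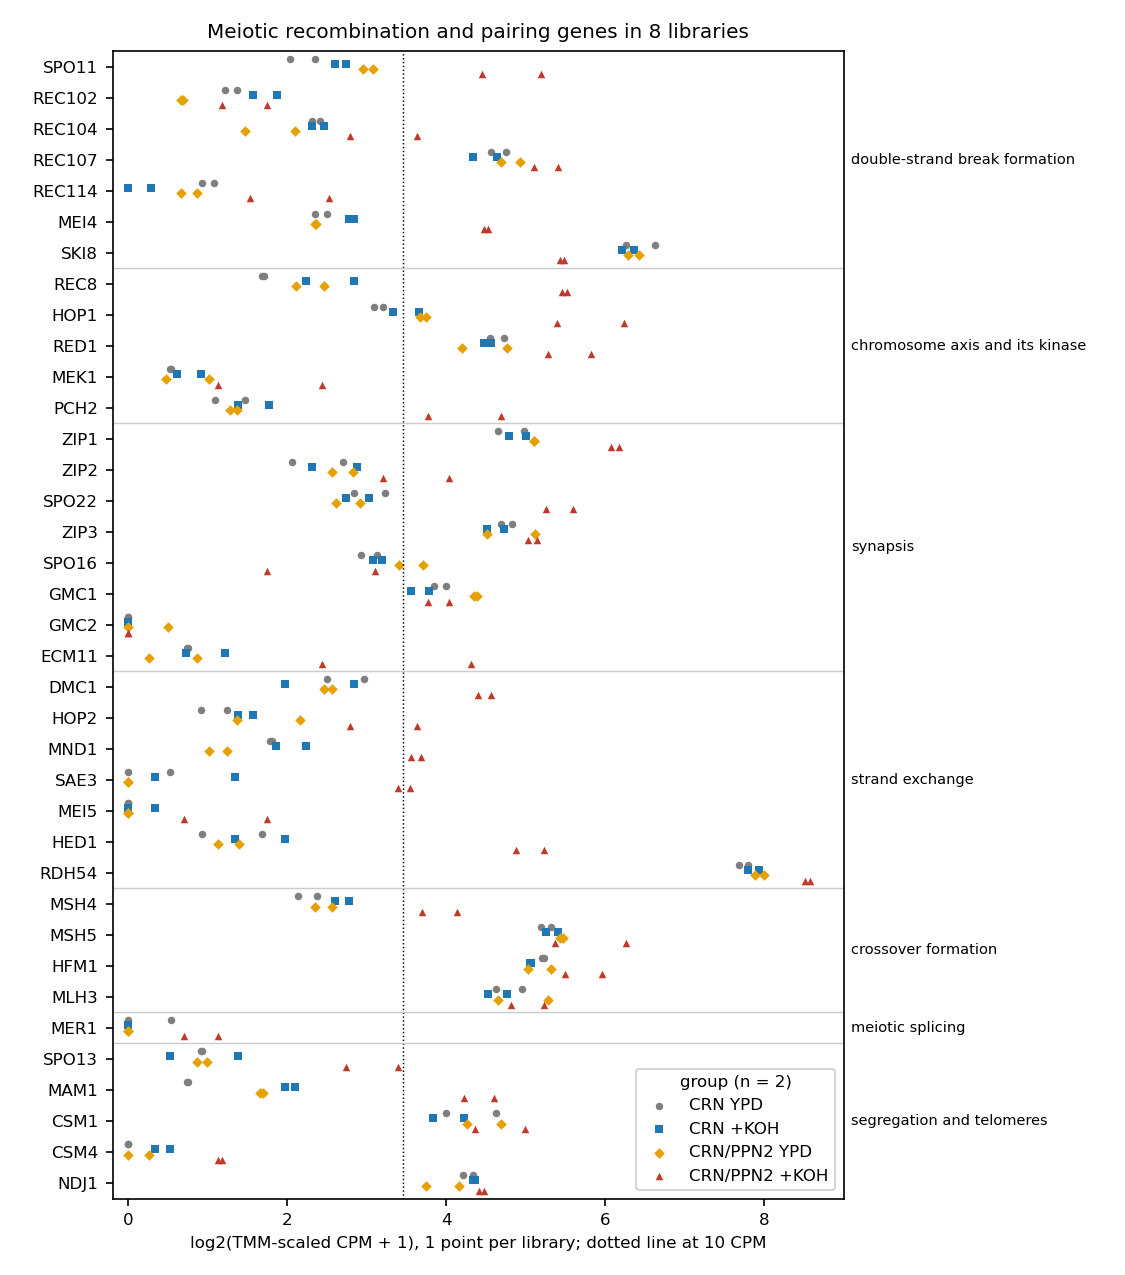
Level of each member in each of the 8 libraries, as log2 of TMM-scaled CPM plus 1, with 1 point per library, colour and shape for the group, members ordered by role and a dotted line at 10 CPM. The CRN/PPN2 +KOH triangles stand to the right of the other 6 points for REC8, HED1, SPO22 and DMC1, and to the left for SKI8. They stand among the other points for MLH3 and overlap with them for CSM1.

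Differences were tested with edgeR's quasi-likelihood test, with the preparation batch as a term and Benjamini-Hochberg adjustment over all genes tested, on genes with at least 10 counts summed over the 8 libraries. That wide table held 6181 genes and 33 members. A filter at 10 CPM in 2 libraries, as the study used, left 23 members, 10 of which passed only through CRN/PPN2 +KOH, so counts over those 23 are not used here. Fold changes are log2 values and adjusted p-values under 0.05 were called. The 2 libraries of a group came from separate preparation and sequencing batches.

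Few members were called for PPN2 in YPD or for KOH in CRN. For CRN/PPN2 against CRN in YPD 0 of 33 members were called, where 5.74% of all genes were. The median member differed by 0.08 and the median gene by 0.01. At an unadjusted p under 0.05 there were 5 members and 1114 genes, and DESeq2 called 0 members as well. The member nearest to the threshold was SPO11, at 0.98 ± 0.34 (SE), adjusted p = 0.103, and without the shallow CRN/PPN2 +KOH libraries in the fit it was called (0.98, adjusted p = 0.0453). For KOH against YPD in CRN 1 of 33 members was called higher, MAM1, where 6.44% of all genes were called higher and 6.55% lower. The medians were 0.13 for members and 0.02 for all genes. After every library was thinned to the smallest, MAM1 was not called and MLH3 was called lower (-1.14, adjusted p = 0.0383). REC8 stood at 1.15 ± 0.41 (SE), adjusted p = 0.0719, and it passed only where the counts were first corrected with ComBat-seq, where the 4 CRN libraries were fitted alone, or without CRN/PPN2 +KOH replicate 1.

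Most members were higher in CRN/PPN2 +KOH. Against CRN/PPN2 YPD, 20 of 33 members were higher and 2 were lower, where 25.9% of all genes were called higher and 25.7% lower. The median member was 1.74 higher on the log2 scale, against -0.01 for all genes. Against CRN +KOH, 23 members were higher and 1 was lower, with 27.6% of all genes higher and 25.7% lower, and the medians were 1.30 and 0.02. These comparisons share the CRN/PPN2 +KOH libraries. After thinning, 17 of the 22 calls against CRN/PPN2 YPD and 18 of the 24 against CRN +KOH remained, all in the same direction. The calls lost were those of REC104, SPO16, HOP2, HFM1 and SPO13 in the first comparison and of REC107, REC114, MND1, MSH4, HFM1 and CSM1 in the second, where REC114 had too few counts left to be tested. Both of those libraries lay above the 6 others for 25 of 33 members and below them for 1, SKI8, where 28.8% of all genes lay above and 23.7% below. Some of the 25 rest on few counts or a small gap. MEK1 had 8 counts over both CRN/PPN2 +KOH libraries, and NDJ1 was at 20.7 ± 0.765 CPM (SD) there against 19.3 ± 0.267 in CRN +KOH. In bulk RNA, more cells of some state and more transcript per cell cannot be told apart.

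Most members are weak genes, and weak genes rose more often than strong ones in this comparison, so the members were also set beside genes of like level. The level was taken from the 4 CRN libraries. They stand on neither side of the KOH comparison in CRN/PPN2, but share its fit for spread and batch. Among genes with a mean under 10 CPM in those 4 libraries, 371 of 1037 (35.8%) were higher and 17 (1.64%) lower, with a median of 1.01. Of the 21 members in that class 16 were higher and 1 lower, with a median of 2.14. Among genes at 10 CPM or more, 24.0% of 5144 were higher and 30.5% lower, with a median of -0.11. Of the 12 members there 4 were higher and 1 lower, with a median of 0.42. This split by level was chosen after the data were seen.

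**Figure D3:**
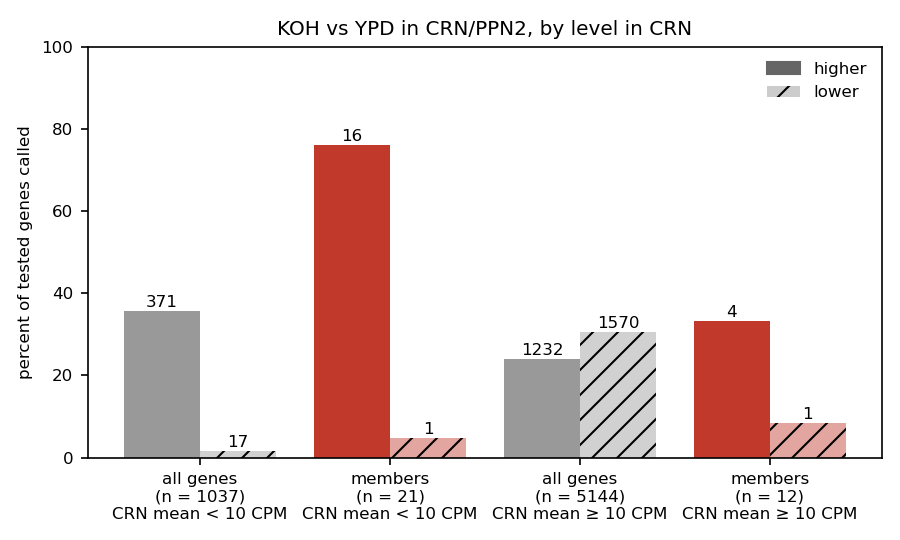
Percent of tested genes called higher (plain bars) or lower (hatched bars) in CRN/PPN2 +KOH against CRN/PPN2 YPD, for all genes (grey) and for the members (red), split by their mean level in the 4 CRN libraries. Numbers on the bars are genes: 16 of 21 weak members and 371 of 1037 weak genes were higher.

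The difference between KOH and YPD was compared between the strains by an interaction term. The KOH cultures ran 40 h in CRN and 25 h in CRN/PPN2, and only CRN/PPN2 +KOH was lysed directly. Strain, hours and lysis therefore cannot be told apart in this term. The KOH difference was higher in CRN/PPN2 for 16 members and lower for 1, SKI8, where 17.6% of all genes were called higher and 17.7% lower. The median difference was 1.06 for members and -0.0014 for all genes. After thinning, 6 of these 17 members were called, namely HOP1, RED1, SPO22, DMC1, MND1 and HED1.

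Break formation comes first in the pathway. Of its 7 genes 3 were higher in CRN/PPN2 +KOH than in CRN/PPN2 YPD and 1 was lower, beside 25.9% and 25.7% of all genes. The counts for each role, here and below, rest on few genes and were not tested. SPO11, the nuclease that makes the breaks, was at 20.8 and 35.5 CPM in CRN/PPN2 +KOH, 6.73 and 7.44 in CRN/PPN2 YPD, 5.04 and 5.69 in CRN +KOH, and 4.09 and 3.09 in CRN YPD. Both KOH libraries of CRN/PPN2 lay above all others, at 1.85 ± 0.30 (SE), adjusted p = 4.03e-05. The YPD libraries of that strain were also the highest of the remaining groups, at 7.09 ± 0.504 CPM against 3.59 ± 0.707 CPM in CRN YPD.

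MEI4, a partner that with Rec114 and Mer2 recruits Spo11, was at 22.1 and 21.3 CPM in CRN/PPN2 +KOH, 4.08 and 4.11 in CRN/PPN2 YPD, 5.84 and 6.13 in CRN +KOH, and 4.09 and 4.63 in CRN YPD. The 2 KOH libraries of CRN/PPN2 lay close together and were 5.08-fold higher than the YPD ones (2.34 ± 0.33 (SE), adjusted p = 5.74e-06). REC104, a further Spo11 partner, was at 11.4 and 5.91 CPM in CRN/PPN2 +KOH, 3.26 and 1.76 in CRN/PPN2 YPD, 4.51 and 3.94 in CRN +KOH, and 4.31 and 3.97 in CRN YPD. Its rise of 1.77 ± 0.47 (SE), adjusted p = 0.00367 was not called without CRN/PPN2 +KOH replicate 1 or after thinning (0.94 to 2.11 over all alternatives).

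REC107 encodes Mer2, which ties break formation to the cell cycle. It was well expressed everywhere, at 33.4 and 41.4 CPM in CRN/PPN2 +KOH, 24.7 and 29.4 in CRN/PPN2 YPD, 19.1 and 23.9 in CRN +KOH, and 22.7 and 26 in CRN YPD. Its KOH difference in CRN/PPN2 did not pass (0.40 ± 0.20 (SE), adjusted p = 0.0984), while the strain difference with KOH did (0.73 ± 0.21 (SE), adjusted p = 0.00572) but was not called after thinning (0.43, adjusted p = 0.299). REC114, a partner of Mer2, had 3 and 4 counts in CRN/PPN2 +KOH, 4 and 3 in CRN/PPN2 YPD, 0 and 1 in CRN +KOH, and 4 and 5 in CRN YPD, and its strain difference with KOH, 4.28 ± 1.25 (SE), adjusted p = 0.00696, rests on these few counts and was not called without CRN/PPN2 +KOH replicate 2. REC102, another Spo11 partner, had 2 to 10 counts per library and was called in no comparison.

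SKI8 was the exception among these genes, at 42.3 and 43.7 CPM in CRN/PPN2 +KOH, 76.9 and 84.8 in CRN/PPN2 YPD, 80.9 and 72.9 in CRN +KOH, and 75.8 and 97.4 in CRN YPD. It fell by 1.95-fold with KOH in CRN/PPN2 (-0.97 ± 0.18 (SE), adjusted p = 0.000166) and was lower than in CRN +KOH too (-0.89 ± 0.18 (SE), adjusted p = 0.000393), and the call held under all 18 alternatives of both comparisons. Both KOH libraries of CRN/PPN2 were below the 6 others. Its protein serves in the cytoplasmic Ski complex for RNA decay as well as beside Spo11. The deposited gene descriptions name a dubious open reading frame that overlaps SKI8.

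Of the 5 axis genes 4 were higher in CRN/PPN2 +KOH than in CRN/PPN2 YPD, and 1 was not called. Over all tested genes the shares were 25.9% called higher and 25.7% called lower. REC8, the meiotic cohesin subunit, was at 42.9 and 44.9 CPM in CRN/PPN2 +KOH, 4.49 and 3.33 in CRN/PPN2 YPD, 3.71 and 6.13 in CRN +KOH, and 2.27 and 2.2 in CRN YPD. It was 10.7-fold higher with KOH in CRN/PPN2 (3.42 ± 0.30 (SE), adjusted p = 9.22e-09), and the KOH effect was larger than in CRN by 2.27 ± 0.55 (SE), adjusted p = 0.00315. Both CRN +KOH libraries were above both CRN YPD libraries, but that difference did not pass.

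HOP1, which binds the axis and marks it for break formation, was at 41 and 74.4 CPM in CRN/PPN2 +KOH, 12.4 and 11.8 in CRN/PPN2 YPD, 9.02 and 11.6 in CRN +KOH, and 8.17 and 7.49 in CRN YPD. RED1, its axis partner, was at 37.9 and 55.5 CPM in CRN/PPN2 +KOH, 17.3 and 26.3 in CRN/PPN2 YPD, 21.2 and 22.5 in CRN +KOH, and 22.5 and 25.4 in CRN YPD. HOP1 was 4.33-fold and RED1 2.01-fold higher with KOH in CRN/PPN2 (2.11 ± 0.24 (SE), adjusted p = 4.67e-07 and 1.01 ± 0.21 (SE), adjusted p = 0.000432), and for both the interaction was called under all 17 alternatives.

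PCH2, the ATPase that removes Hop1 from paired chromosomes, was at 12.6 and 24.8 CPM in CRN/PPN2 +KOH, 1.43 and 1.57 in CRN/PPN2 YPD, 1.59 and 2.41 in CRN +KOH, and 1.14 and 1.76 in CRN YPD. It rose by 3.51 ± 0.44 (SE), adjusted p = 1.84e-06, and the KOH libraries of CRN/PPN2 stood apart from each other but above all others. MEK1, the kinase that steers repair to the homolog, had 7 and 1 counts in CRN/PPN2 +KOH, 5 and 2 in CRN/PPN2 YPD, 2 and 4 in CRN +KOH, and 2 and 2 in CRN YPD. Its difference of 2.02 ± 0.88 (SE), adjusted p = 0.0615 did not pass, and replicate 1 held 7 of the 8 counts in CRN/PPN2 +KOH.

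Of 8 synapsis genes 7 could be tested. In CRN/PPN2 +KOH 3 were higher and 1 lower than in CRN/PPN2 YPD, beside 25.9% and 25.7% of all genes. ZIP1, the central rod of the synaptonemal complex, was at 71.3 and 66.2 CPM in CRN/PPN2 +KOH, 33.5 and 33.3 in CRN/PPN2 YPD, 31 and 26.7 in CRN +KOH, and 30.4 and 24 in CRN YPD. It was 1.96-fold higher (0.97 ± 0.17 (SE), adjusted p = 8.66e-05) and both KOH libraries of CRN/PPN2 lay above the rest.

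SPO22, known also as ZIP4, is a scaffold at synapsis initiation sites. It was at 37.2 and 47.3 CPM in CRN/PPN2 +KOH, 6.53 and 5.09 in CRN/PPN2 YPD, 7.16 and 5.69 in CRN +KOH, and 8.4 and 6.17 in CRN YPD, 6.7-fold higher with KOH in CRN/PPN2 (2.74 ± 0.28 (SE), adjusted p = 8.48e-08). Its interaction, 2.93 ± 0.41 (SE), adjusted p = 2.37e-05, was called under all 17 alternatives. The neighbouring genes SPO22 and HOP1 thus both rose, from start codons that face away from each other.

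ECM11, a central element protein, had 7 and 16 counts in CRN/PPN2 +KOH, 4 and 1 in CRN/PPN2 YPD, 5 and 3 in CRN +KOH, and 3 and 3 in CRN YPD. It rose by 4.19 ± 0.78 (SE), adjusted p = 0.00016, with 18.9 CPM in replicate 2 of CRN/PPN2 +KOH against 4.42 CPM in replicate 1. The partner of Ecm11, GMC2, had no count in that group.

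ZIP2 and SPO16 encode a pair that acts at the same sites as Zip4. ZIP2 had 13 and 13 counts in CRN/PPN2 +KOH and 14 to 31 elsewhere. Scaled for depth, it was at 11.8 ± 5.06 (SD) CPM there, against 4.34 ± 1.65 to 5.48 ± 0.833 CPM in the other groups. The difference from CRN/PPN2 YPD, 0.94 ± 0.43 (SE), adjusted p = 0.0728, did not pass. The annotation has an untranslated RNA on the opposite strand of ZIP2 over 1905 bases, and which strand the counts came from is not given in the sources used here. SPO16 was at 7.57 and 2.36 CPM in CRN/PPN2 +KOH, 12 and 9.6 in CRN/PPN2 YPD, 7.43 and 8.1 in CRN +KOH, and 7.72 and 6.61 in CRN YPD, and it fell by 2.02-fold (-1.01 ± 0.42 (SE), adjusted p = 0.0477). That call was lost under 12 of 17 alternatives (adjusted p 0.027 to 0.415), and replicate 2 of CRN/PPN2 +KOH held 2 counts.

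ZIP3, the ligase that marks crossover sites, was at 31.5 and 34.3 CPM in CRN/PPN2 +KOH, 21.8 and 33.7 in CRN/PPN2 YPD, 21.8 and 25.4 in CRN +KOH, and 24.7 and 27.3 in CRN YPD. The KOH libraries of CRN/PPN2 overlapped with its YPD libraries, and ZIP3 was called in no comparison (0.21 ± 0.22 (SE), adjusted p = 0.426). GMC1 was at 12.6 and 15.4 CPM in CRN/PPN2 +KOH, 20.0 and 19.4 in CRN/PPN2 YPD, 12.7 and 10.7 in CRN +KOH, and 13.4 and 15 in CRN YPD, highest in CRN/PPN2 YPD, and was not called either (-0.59 ± 0.28 (SE), adjusted p = 0.0803).

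All 6 tested genes of strand exchange were higher in CRN/PPN2 +KOH. They passed both against CRN/PPN2 YPD and against CRN +KOH, where 25.9% and 27.6% of all genes were higher. The median was 2.62 against CRN/PPN2 YPD. DMC1, the meiotic recombinase, was at 22.7 and 20.1 CPM in CRN/PPN2 +KOH, 4.9 and 4.51 in CRN/PPN2 YPD, 2.92 and 6.13 in CRN +KOH, and 6.81 and 4.63 in CRN YPD. It was 4.4-fold higher with KOH in CRN/PPN2 (2.14 ± 0.36 (SE), adjusted p = 5.64e-05), and the CRN +KOH libraries overlapped with the CRN YPD ones.

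HED1, a regulator of strand exchange made in meiosis, was at 28.4 and 36.6 CPM in CRN/PPN2 +KOH, 1.63 and 1.18 in CRN/PPN2 YPD, 2.92 and 1.53 in CRN +KOH, and 0.908 and 2.2 in CRN YPD. It showed a 21.3-fold difference (4.41 ± 0.41 (SE), adjusted p = 2.69e-08), the largest of any member with counts in both groups. A dubious open reading frame overlaps it. The call held under all 18 alternatives, from 4.08 to 5.42.

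HOP2 and MND1 form a pair that helps Dmc1 find the homolog. HOP2 was at 11.4 and 5.91 CPM in CRN/PPN2 +KOH, 3.47 and 1.57 in CRN/PPN2 YPD, 1.59 and 1.97 in CRN +KOH, and 1.36 and 0.882 in CRN YPD, and its rise of 1.74 ± 0.50 (SE), adjusted p = 0.00631 was not called after thinning or without CRN/PPN2 +KOH replicate 1. MND1 was at 10.7 and 11.8 CPM in CRN/PPN2 +KOH, 1.02 and 1.37 in CRN/PPN2 YPD, 3.71 and 2.63 in CRN +KOH, and 2.5 and 2.42 in CRN YPD, a rise of 3.11 ± 0.52 (SE), adjusted p = 4.61e-05 that every alternative kept. It too is overlapped by a dubious open reading frame.

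SAE3, which with Mei5 loads Dmc1, had 15 and 9 counts in CRN/PPN2 +KOH, 0 and 0 in CRN/PPN2 YPD, 1 and 7 in CRN +KOH, and 0 and 2 in CRN YPD. Since no count was found in CRN/PPN2 YPD, the difference is given as a bound. With the floor of 3 counts in each YPD library, SAE3 was at least 16.6-fold higher with KOH (adjusted p = 7.23e-06). Its partner MEI5 had 1 and 2 counts in CRN/PPN2 +KOH, 1 count in CRN +KOH and none in the YPD groups.

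RDH54 was the best expressed member and the one with the smallest error, at 379.8 and 363 CPM in CRN/PPN2 +KOH, 254 and 236 in CRN/PPN2 YPD, 244 and 222 in CRN +KOH, and 221 and 205 in CRN YPD. The difference was small, 1.45-fold (0.54 ± 0.12 (SE), adjusted p = 0.00107), and held under all 18 alternatives.

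Of 4 crossover genes 2 were higher and 0 lower with KOH in CRN/PPN2, beside 25.9% and 25.7% of all genes. MSH4, 1 subunit of the MutSγ clamp, was at 12 and 16.5 CPM in CRN/PPN2 +KOH, 4.08 and 4.9 in CRN/PPN2 YPD, 5.84 and 5.03 in CRN +KOH, and 3.41 and 4.19 in CRN YPD and rose by 1.56 ± 0.37 (SE), adjusted p = 0.00168. MSH5, the other subunit, was at 75.7 and 40.2 CPM in CRN/PPN2 +KOH, 42.2 and 43.1 in CRN/PPN2 YPD, 41.4 and 37 in CRN +KOH, and 35.6 and 38.8 in CRN YPD. Replicate 1 of CRN/PPN2 +KOH stood apart from replicate 2, which lay within the range of the other groups. The difference from CRN/PPN2 YPD did not pass (0.45 ± 0.20 (SE), adjusted p = 0.0647), and that from CRN +KOH did (0.58 ± 0.20 (SE), adjusted p = 0.022) but went to -0.026 (adjusted p = 0.952) without replicate 1.

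HFM1, the helicase Mer3, was at 44.2 and 61.4 CPM in CRN/PPN2 +KOH, 31.6 and 38.8 in CRN/PPN2 YPD, 32.1 and 32.4 in CRN +KOH, and 36.5 and 35.9 in CRN YPD. It rose by 0.48 ± 0.19 (SE), adjusted p = 0.0363, a call that 8 of 18 alternatives lost. MLH3, an endonuclease subunit, was at 27.1 and 36.6 CPM in CRN/PPN2 +KOH, 24.1 and 37.8 in CRN/PPN2 YPD, 22 and 26.1 in CRN +KOH, and 30.0 and 23.6 in CRN YPD and did not differ beyond its spread (-0.04 ± 0.25 (SE), adjusted p = 0.897). MER1, which promotes splicing of some meiotic transcripts, had 1 and 1 counts in CRN/PPN2 +KOH and 2 in all other libraries together. Coding exons number more than 1 in 12 members, and of the 11 that were tested 8 were higher and 0 lower with KOH in CRN/PPN2. Of the 22 tested members with 1 coding exon 12 were higher and 2 lower, beside 25.9% and 25.7% of all genes, and the difference between these classes was not tested. The counts are per gene and do not tell spliced from unspliced transcripts.

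Among the genes of segregation and telomeres 2 of 4 tested were higher and 0 lower with KOH in CRN/PPN2. The shares of all genes were 25.9% and 25.7%. MAM1, which holds sister kinetochores together in the first division, had 37 and 15 counts in CRN/PPN2 +KOH, 11 and 11 in CRN/PPN2 YPD, 11 and 15 in CRN +KOH, and 3 and 3 in CRN YPD. It was the 1 member called for KOH in both strains, at 2.17 ± 0.59 (SE), adjusted p = 0.0178 in CRN and 3.17 ± 0.38 (SE), adjusted p = 1.02e-06 in CRN/PPN2, and the difference between the strains did not pass (1.00 ± 0.85 (SE), adjusted p = 0.377). Leaving out any of the 4 CRN libraries ended the call in CRN, which rests on 3 and 3 counts in YPD.

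SPO13, which protects sister cohesion in the first division, had 9 and 8 counts in CRN/PPN2 +KOH, 4 and 5 in CRN/PPN2 YPD, 6 and 2 in CRN +KOH, and 4 and 4 in CRN YPD. It rose by 2.86 ± 0.68 (SE), adjusted p = 0.00158 with KOH in CRN/PPN2, and was not called after thinning (adjusted p = 0.0520). CSM1, a monopolin subunit that also works in the nucleolus of mitotic cells, was at 19.6 and 30.7 CPM in CRN/PPN2 +KOH, 18.2 and 24.9 in CRN/PPN2 YPD, 13.3 and 17.7 in CRN +KOH, and 15 and 23.6 in CRN YPD. NDJ1, which ties telomeres to the nuclear envelope, was at 20.2 and 21.3 CPM in CRN/PPN2 +KOH, 12.4 and 16.8 in CRN/PPN2 YPD, 19.1 and 19.5 in CRN +KOH, and 17.5 and 19.2 in CRN YPD. CSM1 and NDJ1 did not pass with KOH in CRN/PPN2 (0.14 ± 0.23 (SE), adjusted p = 0.637 and 0.45 ± 0.26 (SE), adjusted p = 0.153), and CSM4, which links telomeres to the cytoskeleton, had at most 2 counts in any library. For CSM1 the difference from CRN +KOH passed (0.62 ± 0.25 (SE), adjusted p = 0.0419) and was lost under 12 of 18 alternatives.

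**Figure D4:**
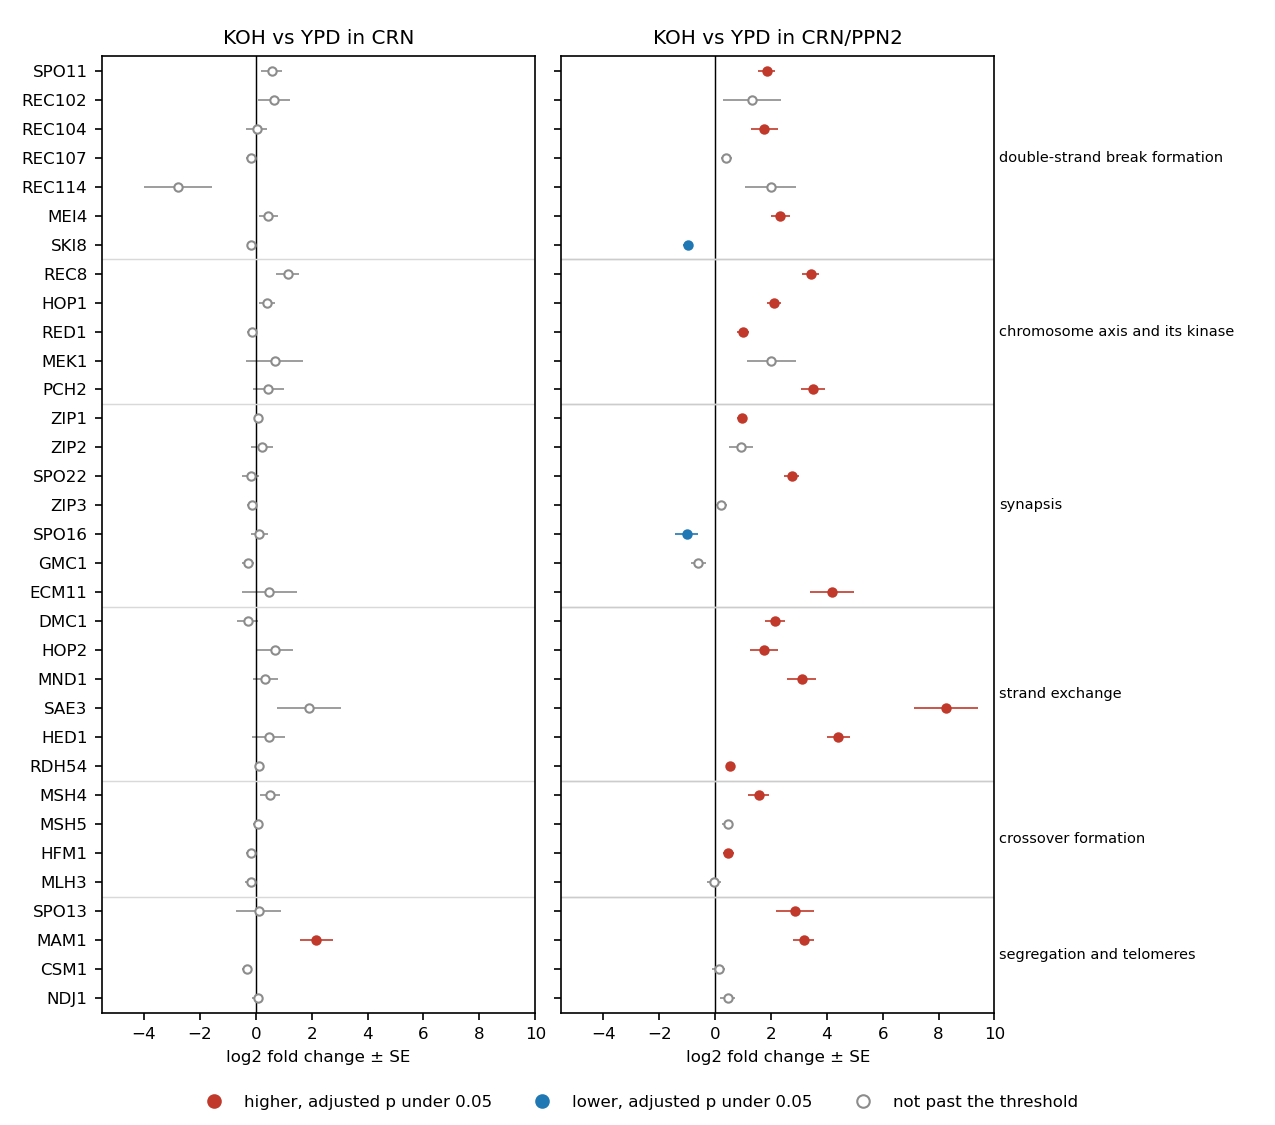
log2 fold change with its SE for KOH against YPD in CRN (left) and in CRN/PPN2 (right) for the 33 tested members, ordered by role, with filled points past the threshold. In CRN only MAM1 was called, and in CRN/PPN2 20 members were higher and 2 lower. The value for SAE3 on the right depends on the fit, since it had no count in CRN/PPN2 YPD.

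The URS1 core stood before members that rose and before members that did not. Of the 18 tested members with the core 12 were higher and 1 lower, with a median of 2.06. Of the 15 without it 8 were higher and 1 lower, with a median of 0.94, beside 25.9% and 25.7% of all genes. Among other genes, 34.1% of 267 with the core and 25.5% of 5412 without it were higher, and 24.0% and 27.9% lower. These shares are given as a description and were not tested.

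Other genes of sporulation were read beside the members. Of 13 tested regulators of entry into meiosis 7 were higher and 3 lower with KOH in CRN/PPN2, beside 25.9% and 25.7% of all genes. RIM15, a kinase needed for entry, rose by 1.87 ± 0.14 (SE, adjusted p = 1.01e-09), RIM4, an RNA-binding protein of meiosis, by 2.04 ± 0.22 (adjusted p = 2.37e-07) and SLZ1, of the RNA methylation complex, by 3.33 ± 0.55 (adjusted p = 4.31e-05). MCK1, a kinase that promotes IME1, was lower at -1.46 ± 0.15 (adjusted p = 1.11e-07). IME1 was at 6.39 ± 0.666 (SD) CPM in CRN/PPN2 YPD and 17.2 ± 9.13 (SD) CPM in CRN/PPN2 +KOH. In the same groups NDT80 was at 6.57 ± 1.51 and 18.4 ± 9.07 CPM, and UME6 at 48.0 ± 8.29 and 72.0 ± 11.8 CPM. SUM1, a further regulator on the list, was at 126 ± 2.62 and 76.1 ± 5.69 CPM. Of 19 tested genes of middle and late sporulation 14 were higher, 0 lower and 5 not called, beside the same shares of all genes. Of genes with a mean under 10 CPM in the 4 CRN libraries 35.8% were higher and 1.64% lower. SPO74, SPO20 and OSW1 lay under that level too. SPO74 rose by 5.26 ± 0.38 (adjusted p = 6.31e-10), SPO20 by 4.08 ± 0.31 (adjusted p = 1.56e-09) and OSW1 by 6.67 ± 0.54 (adjusted p = 3.41e-09). OSW1 was at 0.306 ± 0.433 (SD) CPM in CRN/PPN2 YPD, so the size of its rise depends on the fit. SPS4 was at 18.4 ± 3.64 (SD) CPM in CRN/PPN2 YPD and 19.2 ± 1.27 (SD) CPM in CRN/PPN2 +KOH. The summed level of all 20 listed genes of middle and late sporulation was 102.7 to 166.9 CPM in 6 libraries and 512.3 and 530.6 CPM in CRN/PPN2 +KOH.

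Genes that serve recombination and cohesion in growing cells were also read. Of 25 recombination genes also used in mitosis 6 were higher and 4 lower with KOH in CRN/PPN2, with a median of 0.02, and these counts lie near or below the 25.9% and 25.7% of all genes. RFA3 was higher at 1.08 ± 0.13 (adjusted p = 9.28e-07), while RFA2 and RFA1, of the same single-strand binding complex, were lower at -1.02 ± 0.16 (adjusted p = 1.84e-05) and -0.93 ± 0.15 (adjusted p = 3.75e-05). Of 10 mitotic cohesin and monopolin partners 0 were higher and 4 lower. MCD1, the mitotic counterpart of REC8, was lower at -0.94 ± 0.14 (adjusted p = 1.42e-05), opposite in sign to REC8. Of 8 SUMO pathway genes only the protease gene ULP1 was called, at 0.83 ± 0.16 (adjusted p = 0.000188).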

How the data were processed

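RNA was sequenced in 8 libraries, 2 in each of 4 groups. Per the labels the authors aligned the reads with STAR 2.7.6a to the R64 genome and deposited whole-number counts per gene, not normalized. The table of the whole series was used, and the per-sample files held the same 7127 values. The strand setting of the counting is not given in the sources used here.

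The deposited counts were tested with edgeR 4.0.16 (R 4.3.3): TMM factors, quasi-likelihood F test over all 8 libraries and 4 groups, Benjamini-Hochberg adjustment over all genes tested, threshold 0.05. Replicate number was a block, since the study's methods give replicates 1 and 2 as separate batches of preparation and sequencing. Same-numbered libraries deviated together (r = 0.0988 to 0.504 over 5430 genes). Whether the 2 batches were separate cultures is not stated, so p-values may measure technical spread. The planned main filter was 10 CPM in 2 libraries (5430 genes), and the fit with 10 counts over 8 libraries (6181 genes) is printed for every member. SE is the log2 fold change divided by the root of F. CPM values are TMM-scaled, and RPKM divides them by coding length from the RefSeq annotation. A count of 0 allows up to 3 counts.

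Values in every library were printed for members that passed either the 10 CPM filter or a test. Members and lists were chosen with earlier results of these data known. Alternatives were no block, ComBat-seq (sva 3.50.0), DESeq2 1.42.0, RLE and upper quartile factors, other filters, thinning, 4 libraries alone and leaving out each library. The fit was tested on simulated data. Motifs were searched in windows from 250 bases before to 50 bases after the start codon, on both strands.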

Additional observations from a re-analysis of the deposited data

Results flagged for a closer look

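The effect of KOH differed between the strains for 17 of 33 members by the interaction term of the edgeR fit. Of all genes 17.6% were called higher and 17.7% lower by that term. Strain, hours and lysis cannot be told apart in it. The difference of log2 fold changes, CRN/PPN2 minus CRN, was 6.36 for SAE3, 4.78 for REC114, 3.96 for HED1, 3.71 for ECM11, 3.05 for PCH2, 2.93 for SPO22, 2.77 for MND1, 2.43 for DMC1 and 2.27 for REC8. It was 1.89 for MEI4, 1.74 for REC104, 1.72 for HOP1, 1.28 for SPO11, 1.14 for RED1, 0.89 for ZIP1, 0.66 for HFM1 and -0.79 for SKI8. Adjusted p ran from 2.37e-05 for SPO22 to 0.0483 for SAE3. The value for SAE3 rests on 0 counts in CRN/PPN2 YPD and that for REC114 on 0 to 5 counts in each library, so their sizes depend on the fit. The call held under every alternative run for HOP1, RED1, SPO22, DMC1, MND1 and HED1, and was lost under at least 1 alternative for the other 11.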

How the results depend on the processing

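On the wide table, the replicate block, ComBat-seq, DESeq2, other size factors and filters left the members called for KOH in CRN/PPN2 and for the strains with KOH within 1.5 times. Leaving out a library gave 20 to 22 members for KOH in CRN/PPN2 (22 with all), 18 to 24 for the strains with KOH (24), 11 to 18 for the interaction (17), 0 to 2 for KOH in CRN (1) and 0 to 1 for the strains in YPD (0). Under the 10 CPM filter these ranges were 6 to 17 (17), 7 to 19 (19), 6 to 13 (14), 0 to 1 (1) and 0 to 0 (0), the low ends without a CRN/PPN2 +KOH library, since 10 members pass that filter only through that group.

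Thinning to the smallest library left 6 interaction calls under either filter, and called 1 member for the strains in YPD (ZIP1) and 1 for KOH in CRN (MLH3, lower, in place of MAM1). For the strains in YPD 1 member was also called with the 4 libraries alone under the 10 CPM filter (HOP1) and without both CRN/PPN2 +KOH libraries on the wide table (SPO11). For KOH in CRN, ComBat-seq called 2 under either filter and the 4 libraries alone 2 on the wide table (MAM1 and REC8), while under the 10 CPM filter the 4 libraries alone and the fit without both CRN/PPN2 +KOH libraries called 0, MAM1 no longer being tested. Thinning reversed the interaction of ZIP1 (-0.17, adjusted p = 0.823), and MSH5 between the strains with KOH went to -0.026 (adjusted p = 0.952) without CRN/PPN2 +KOH replicate 1, with 0.90 the highest value when a library was left out. The cause was not tested.

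Members above background numbered 29, 28, 28 and 29 by the main rule (CRN YPD, CRN +KOH, CRN/PPN2 YPD, CRN/PPN2 +KOH). In the first 3 groups they were 17, 17 and 16 after thinning and 12, 12 and 13 at 10 CPM, and by reference RPKM 9, 8, 10 and 5 in all 4.

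Counts over all genes moved most where few were called. For the strains in YPD, 353 genes under the 10 CPM filter became 132 with no replicate block, 556 with ComBat-seq, 132 after thinning, 868 with 4 libraries alone and 786 without both CRN/PPN2 +KOH libraries. The 355 of the wide table became 136 with no replicate block, 544, 225 with DESeq2, 138 after thinning and 781. For KOH in CRN, 822 became 362 with no replicate block, 530 with DESeq2, 348 after thinning, 1728 with 4 libraries alone and 1382 without both. The 803 of the wide table became 350 with no replicate block, 517, 358, 1636 and 1353. The interaction fell from 2156 to 1283, and from 2182 to 1309, after thinning. Leaving out a library gave 98 to 801, 202 to 1412, 2291 to 2831, 2403 to 2998 and 1473 to 2180 genes under the 10 CPM filter, for the strains in YPD, KOH in CRN, KOH in CRN/PPN2, the strains with KOH and the interaction, and 99 to 808, 193 to 1400, 2440 to 3058, 2455 to 3154 and 1447 to 2347 on the wide table. With upper quartile factors the median gene shifted to -0.11 for KOH in CRN/PPN2, and 1371 genes were higher and 1691 lower in place of 1586 and 1386. Depth limits what a few counts can show, and 1 count in CRN/PPN2 +KOH stands for 0.641 and 1.26 CPM.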
